A study of Mus musculus with 12 samples.

Results

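The nuclear genes of the mitochondrial ribosomal proteins were followed from 2 to 18 months of age in the VTA (ventral tegmental area), part of the midbrain and home to a large share of its dopaminergic neurons. Members were all probe sets that the array annotation lists with exactly 1 gene whose symbol is Mrpl or Mrps followed by a number. There were 156 such probe sets for 76 genes, of 45037 probe sets in all. The large subunit had 104 probe sets for 47 genes and the small subunit 52 for 29 genes, by symbol. The symbol Mrps36 is carried by a gene whose product is now known as a part of the oxoglutarate dehydrogenase complex rather than of the ribosome; its 1 probe set was kept, as the symbols chose the members. A further 4 probe sets were left out because they are listed with several genes (Mrpl30, Mrps34 and Mrpl53 share them with other genes).

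Mitochondria carry their own ribosome, which translates the few messages encoded by mitochondrial DNA, all of them subunits of the oxidative phosphorylation complexes. Its RNAs come from mitochondrial DNA, whereas all of its proteins are encoded in the nucleus, made on cytosolic ribosomes and imported. Some of these proteins have a counterpart in the bacterial ribosome, from which the organelle's ribosome descends, and others are found only in mitochondria. Most neurons depend heavily on oxidative phosphorylation, and dopaminergic neurons of the midbrain are known for a high demand.

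The mice were wild-type C57 animals (C57BL/6 in the methods) aged 2 months (young), 10 months (middle-aged) or 18 months (late-middle-aged), with no other treatment. Each age had 4 arrays, and each array carried VTA RNA pooled from 5 mice, so that the spread between arrays is a spread between pools. Values are log2 expression per probe set, a probe set being a group of short probes for 1 transcript region. Young arrays 3 and 4 were nearly the same (r = 0.998 over probe sets, with 1 probe set differing by more than 1 log2 unit; the 17 remaining pairs within an age had 85 to 4905) and were averaged, which left 3, 4 and 4 samples. Th, the rate-limiting enzyme of dopamine synthesis and a marker of dopaminergic neurons, had a mean of 13.00 at 2 months and 13.84 at 18 months. That rise of 0.84 was itself called by limma (adjusted p = 0.00735). The study used TH to label dopaminergic neurons in the neighbouring substantia nigra as well as in the VTA. The whole dissected region was used, so that fewer cells of a type and less RNA per cell cannot be told apart.

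The array annotation gives no position for a probe set on the genome, but 67 of the 76 genes have a promoter entry in RefSeq (GRCm38.p6, mouse), from 250 bases before to 50 bases after the annotated start. The 73 promoters of these genes were searched on both strands for 3 short motifs of factors known to act on nuclear genes of mitochondrial proteins. The motif of NRF-1 (GCATGCGC) was in 11% of them against 2.71% of all 32851 promoters, that of ETS factors such as GABP (CCGGAAG) in 34.2% against 8.86%, and that of YY1 (AAGATGGC) in 16.4% against 2.75%. At least 1 of the 3 was in 50.7% against 13.3%. For comparison, 23.6% of the promoters of oxidative phosphorylation genes and 41.2% of those of cytosolic ribosomal proteins held the ETS motif. The NRF-1 motif was in 12.5% and 3.92% of these 2 groups, and the YY1 motif in 12.5% and 7.84%. A match describes the letters in the window and is not a bound site. Of the promoters printed here, 2 belong to the genes with probe sets that were called in both directions (Mrpl44 and Mrps23), and Mrpl3 and Mrpl10 show an ETS and an NRF-1 match in genes with a called probe set. Motif letters on either strand are in capitals, and the Mrpl44 window held none of the 3.
Mrpl44, chr1:79775768-79776067, + strand: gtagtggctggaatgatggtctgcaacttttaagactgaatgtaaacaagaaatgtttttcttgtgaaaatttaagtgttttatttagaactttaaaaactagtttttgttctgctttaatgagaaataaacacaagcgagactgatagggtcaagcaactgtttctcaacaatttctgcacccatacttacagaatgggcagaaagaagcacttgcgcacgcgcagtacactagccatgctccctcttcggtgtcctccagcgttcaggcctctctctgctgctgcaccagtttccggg
Mrps23, chr11:88204138-88204437, + strand: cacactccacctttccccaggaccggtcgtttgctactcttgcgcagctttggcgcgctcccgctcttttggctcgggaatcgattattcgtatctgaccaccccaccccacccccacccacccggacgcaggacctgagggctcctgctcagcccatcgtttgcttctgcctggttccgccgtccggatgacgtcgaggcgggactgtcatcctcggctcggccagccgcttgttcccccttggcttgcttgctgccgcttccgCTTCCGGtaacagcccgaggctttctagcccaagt
Mrpl3, chr9:105053018-105053317, + strand: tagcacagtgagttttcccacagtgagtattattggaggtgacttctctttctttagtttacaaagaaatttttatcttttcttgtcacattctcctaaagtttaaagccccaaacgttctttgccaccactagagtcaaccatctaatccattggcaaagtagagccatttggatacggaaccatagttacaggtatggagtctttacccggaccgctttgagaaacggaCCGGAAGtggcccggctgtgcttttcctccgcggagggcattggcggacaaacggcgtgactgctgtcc
Mrpl10, chr11:97041332-97041631, + strand: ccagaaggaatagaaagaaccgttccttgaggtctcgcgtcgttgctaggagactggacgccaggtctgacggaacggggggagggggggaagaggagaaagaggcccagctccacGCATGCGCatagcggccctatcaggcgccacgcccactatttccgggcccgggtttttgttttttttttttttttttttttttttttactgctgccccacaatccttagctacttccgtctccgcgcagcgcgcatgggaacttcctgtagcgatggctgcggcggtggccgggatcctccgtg

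Between 2 and 18 months, 8 of the 156 probe sets were called higher and 4 lower by limma, where called means a Benjamini-Hochberg adjusted p under 0.05 over all probe sets and a change of more than 1.3-fold. These 12 were 7.69% of the members, against 7.46% called among all 45037 probe sets, of which 4.55% were higher and 2.91% lower. The share of members called was therefore near the background. The median log2 change of the members was -0.05, against -0.06 over all probe sets, with 71 members above zero and 85 below. The groups of 3 and 4 samples did not overlap in 37 members (23.7%), 15 higher and 22 lower, against 23.6% of all probe sets. All members entered these counts; 147 had a mean signal above the lower quartile of all probe sets (4.57), the 12 called ones among them.

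**Figure D1:**
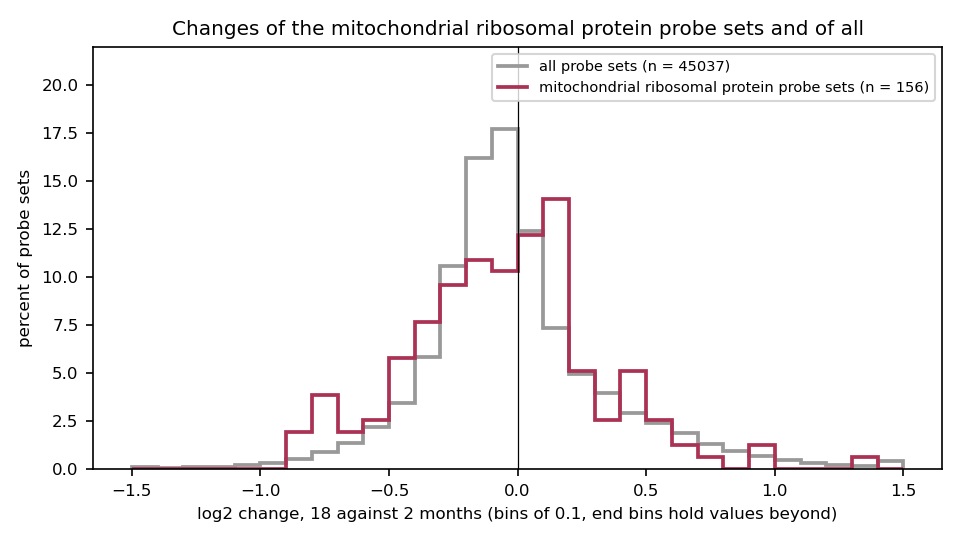
Distribution of the log2 change between 2 and 18 months (x axis, bins of 0.1) as percent of probe sets (y axis), for the 156 mitochondrial ribosomal protein probe sets and for all 45037. Both curves centre close to zero, with medians of -0.05 and -0.06.

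By subunit, 6 probe sets of the large subunit were higher and 1 lower (6.73% of 104, median change -0.03), and 2 of the small subunit were higher and 3 lower (9.62% of 52, median -0.07). Proteins with a bacterial counterpart had 4 higher and 2 lower of 99 probe sets, and mitochondria-specific proteins 4 higher and 2 lower of 56, with Mrps36 in neither class. With every gene represented by its brightest probe set, 3 of 76 genes were called (3.95%), against 8.82% of all 18193 genes. These were Mrpl10 and Mrpl48, which were higher, and Mrps6, which was lower. In the related machineries, 5 probe sets were higher and 5 lower of 105 for cytosolic ribosomal proteins (median -0.11), and 8 were higher and 2 lower of 170 for oxidative phosphorylation (median -0.11).

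The technical setting of these comparisons moved with age. The difference between the 3' and 5' control probe sets of Actb and Gapdh, a sign of how much of a transcript's length was copied, was 3.29 to 3.63 log2 units on the young arrays, 1.69 to 2.44 at 10 months and 1.64 to 2.17 at 18 months. With this difference as a covariate, limma called 0 members and 0 of all probe sets between 2 and 18 months (3 members at an unadjusted p under 0.05), and its part in the single changes cannot be told apart from age. The median SE of the members was 0.49 in that fit, against 0.18 without the covariate. Its 0 calls therefore do not show that changes were absent. Mean marker levels moved as well, though single markers moved unequally. The mean over 4 microglial markers, 1 of them called higher, was 8.55 to 8.71 at 2 months and 8.96 to 9.15 at 18 months. P2ry12 changed by 1.58, Aif1 by 0.27, Cx3cr1 by 0.14 and Csf1r by -0.18. For 6 dopaminergic markers, 1 of them called higher, the mean was 12.15 to 12.30 and 12.39 to 12.63. Th changed by 0.84, Slc18a2 by 0.78, Ddc by 0.33, Slc6a3 by 0.20, Nr4a2 by -0.11 and Pitx3 by -0.15. The mean over 4 astrocyte markers, of which 0 were called, was 10.63 to 10.67 at 2 months and 10.90 to 11.08 at 18 months. General neuronal markers (4 genes, 2 called higher and 1 lower) ranged from 11.71 to 11.91 and from 11.95 to 12.15, and oligodendrocyte markers (3 genes, 0 called) overlapped between the ages. Among markers of tissue outside the VTA, 2 of 3 choroid plexus genes and 1 of 2 blood genes were not above the lower quartile. The third choroid plexus gene, Ttr, which encodes transthyretin, had a mean of 8.29 ± 1.43 (SD) at 2 months and 6.36 ± 0.64 at 18 months (adjusted p = 0.122). All 3 pituitary genes were above the quartile, with list means of 5.75 to 5.84 at 2 months and 5.61 to 5.98 at 18 months, and limma called 0 genes of the choroid plexus, blood and pituitary lists (1, 0 and 0 at an unadjusted p under 0.05). The part of these shifts in the results was not tested.

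Among large subunit proteins with a bacterial counterpart, probe sets of 3 genes were higher. Mrpl10, a protein at the base of the stalk where translation factors dock, has 1 probe set, with values of 8.80, 9.49 and 9.42 at 2 months, 10.00, 9.59, 9.82 and 9.74 at 10 months and 9.79, 9.84, 9.91 and 9.76 at 18 months. Young array 1 was the lowest sample, and all samples of both later ages lay above the 3 young ones. The change from 2 to 18 months was 0.59 ± 0.16 (SE; adjusted p = 0.0487), and without young array 1 it was 0.37 (adjusted p = 0.197).

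Mrpl19 (1450405_at) had 6.71, 7.19 and 7.12 at 2 months, 7.82, 7.85, 7.50 and 7.76 at 10 months and 7.71, 7.38, 7.72 and 7.58 at 18 months. The later ages lay above the young samples without overlap. Against 2 months, the rise was 0.72 ± 0.14 by 10 months (adjusted p = 0.043), and by 18 months it was 0.59 ± 0.14 (adjusted p = 0.0327). The other Mrpl19 probe sets above the lower quartile changed by 0.32 ± 0.12 (1421914_s_at) and 0.17 ± 0.13 (1440324_at) at 18 months and were not called.

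Mrpl3 (1422463_a_at), a core protein of the large subunit, rose by 0.65 ± 0.14 (adjusted p = 0.0193). Its values were 7.32, 7.57 and 7.45 at 2 months, 7.67, 7.52, 8.01 and 7.83 at 10 months and 8.02, 8.07, 7.96 and 8.36 at 18 months, so that only the 18 months samples cleared the young ones. The other 3 Mrpl3 probe sets changed by -0.03 (1422464_at), -0.16 (1431006_at) and -0.24 (1440636_at), with none called.

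Of the mitochondria-specific large subunit proteins, Mrpl44, which carries a fold related to RNase III enzymes and is mutated in an inherited cardiomyopathy, moved in both directions. Probe set 1430990_s_at had 6.55, 6.29 and 6.45 at 2 months, 7.30, 6.74, 6.78 and 7.14 at 10 months and 7.58, 7.21, 7.46 and 7.21 at 18 months, a rise of 0.94 ± 0.16 (adjusted p = 0.0081). Probe set 1437391_x_at had 11.24, 11.07 and 11.17 at 2 months, 10.52, 10.84, 10.07 and 10.73 at 10 months and 10.65, 10.43, 10.36 and 10.36 at 18 months, a fall of -0.71 ± 0.17 (adjusted p = 0.0268). The young samples were the lowest of all on the former and the highest of all on the latter. The remaining Mrpl44 probe sets changed by -0.63 ± 0.19 (1452144_a_at, adjusted p = 0.0707) and 0.17 ± 0.14 (1426651_at, adjusted p = 0.514). With each of the 11 samples left out in turn, 1430990_s_at was called at 18 months in 11 of 11 fits and 1437391_x_at in 5.

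Mrpl48 (1428302_at) was higher at both later ages. It had 9.50, 10.20 and 9.94 at 2 months, 10.81, 10.85, 10.86 and 10.65 at 10 months and 10.54, 10.59, 10.51 and 10.85 at 18 months, with no overlap between young and later samples. By 10 months it had risen by 0.91 ± 0.16 (adjusted p = 0.0326), and the rise from 2 to 18 months was 0.74 ± 0.16 (adjusted p = 0.018). The other Mrpl48 probe sets went the other way at 18 months, by -0.22 (1437997_x_at) and -0.43 (1442016_at), neither called.

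Mrpl57 (1460225_at) had 6.41, 6.38 and 6.46 at 2 months, 6.69, 6.68, 7.19 and 6.75 at 10 months and 6.94, 7.55, 6.94 and 7.04 at 18 months, a rise of 0.70 ± 0.17 (adjusted p = 0.0308). The later ages again cleared the young samples. Its other probe set (1418137_at) averaged 10.11 ± 0.08 in the young mice (SD, n = 3) and 9.76 ± 0.43 in the late-middle-aged ones (SD, n = 4), a change of -0.36 ± 0.26 that was not called.

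In the small subunit, the change largest in size among all members belonged to Mrps23, a mitochondria-specific protein. Probe set 1421874_a_at had 6.36, 7.01 and 6.28 at 2 months, 7.46, 7.22, 8.52 and 7.30 at 10 months and 7.40, 8.39, 7.62 and 8.26 at 18 months, a rise of 1.37 ± 0.34 (adjusted p = 0.0325). Probe set 1459806_x_at had 8.34, 8.02 and 7.996 at 2 months, 7.52, 7.69, 7.48 and 7.53 at 10 months and 7.09, 7.60, 7.09 and 7.46 at 18 months, a fall of -0.81 ± 0.15 (adjusted p = 0.0103). As with Mrpl44, no young sample overlapped the later ages on either probe set, in opposite directions. The remaining probe set (1421875_a_at) changed by 0.20 ± 0.10 (adjusted p = 0.237).

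Mrps9 (1418034_at), which has a bacterial counterpart, had 7.95, 8.13 and 8.14 at 2 months, 8.47, 8.31, 8.21 and 8.40 at 10 months and 8.36, 8.66, 8.56 and 8.59 at 18 months. Both later ages lay above the young samples, and the rise at 18 months was 0.47 ± 0.11 (adjusted p = 0.0273). The other 3 Mrps9 probe sets changed by -0.09 to -0.37 and were not called.

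Mrps6 (1447585_s_at) had 11.95, 11.95 and 11.86 at 2 months, 11.39, 11.84, 10.86 and 11.52 at 10 months and 11.35, 11.21, 11.23 and 10.83 at 18 months. It fell by -0.77 ± 0.20 (adjusted p = 0.0399), whereas its other probe set (1424440_at) changed by -0.03 ± 0.26. Mrps5, whose level has been linked with lifespan across mouse strains in earlier work, had 7.70, 8.10 and 7.41 at 2 months, 6.94, 7.04, 6.96 and 7.04 at 10 months and 6.84, 7.38, 6.81 and 7.10 at 18 months on 1447628_x_at. That was a fall of -0.70 ± 0.17 (adjusted p = 0.0323), with late-middle-aged array 2 just below the lowest young sample. The other 4 Mrps5 probe sets changed by 0.37 ± 0.26 (1435563_at), 0.03 ± 0.14 (1459439_at), 0.02 ± 0.20 (1448488_at) and -0.57 ± 0.17 (1453954_a_at, adjusted p = 0.0644).

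**Figure D2:**
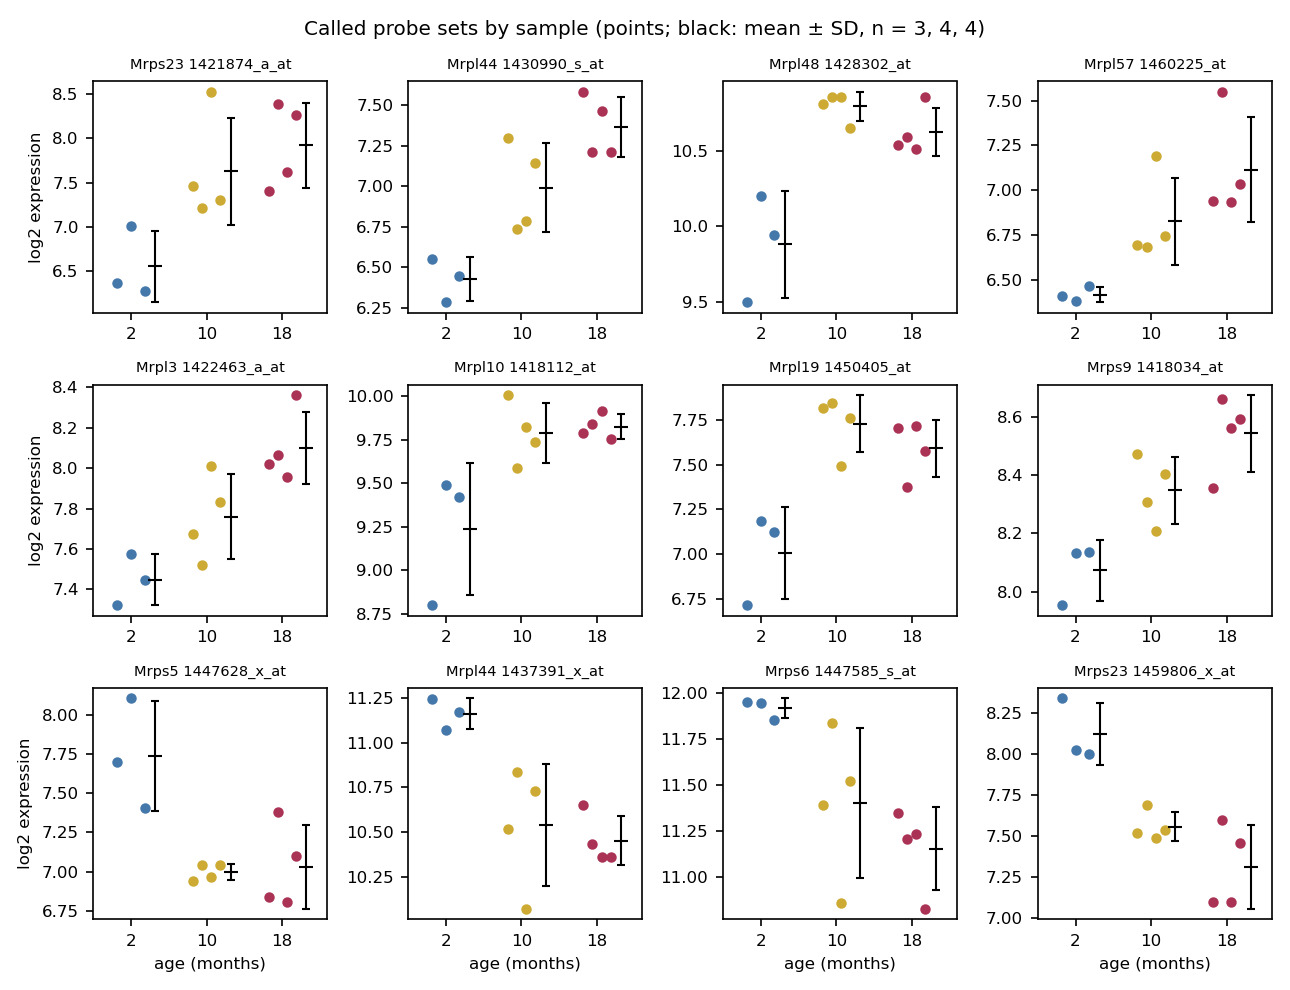
Log2 expression (y axis) of the 12 called probe sets in every sample at 2, 10 and 18 months (x axis); the young group holds 3 samples because young arrays 3 and 4 were averaged, and black marks give the mean ± SD. The 8 upper panels were higher and the 4 lower panels lower at 18 than at 2 months, and no 18 months sample overlapped the young ones in any panel.

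Different probe sets of the same gene thus often changed unequally. Of the 39 genes with more than 1 probe set above the lower quartile, 25 had changes of both signs between 2 and 18 months, the median gap between the highest and lowest change of a gene was 0.48, and in 7 genes it exceeded 1 log2 unit (Mrpl38, Mrpl44, Mrpl48, Mrpl57, Mrps5, Mrps23 and Mrps24, listed after their values were seen). The design class of a probe set, given by its suffix, went with the direction. Suffix _x_at marks probes that can bind unrelated transcripts, _s_at those shared by several transcripts and _a_at those shared by transcripts of 1 gene. Of the 14 members with the suffix _x_at, 3 were called lower (21.4%) and 0 higher, with a median of -0.31, against 9.50% called lower of all 2441 such probe sets, whose median was -0.17. The other member called lower was of the _s_at class, so that of the 133 members in the remaining classes 7 were called higher and 0 lower. In the _at class 4.90% of the members were called higher and 0 lower, against 4.00% and 2.25% of all such probe sets, and in the _a_at class 6.45% and 0, against 9.53% and 3.37%. Without _x_at and _s_at probe sets, with p-values adjusted over the rest, 6 members were called (4.51%), all higher, against 6.74% of all probe sets kept.

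**Figure D3:**
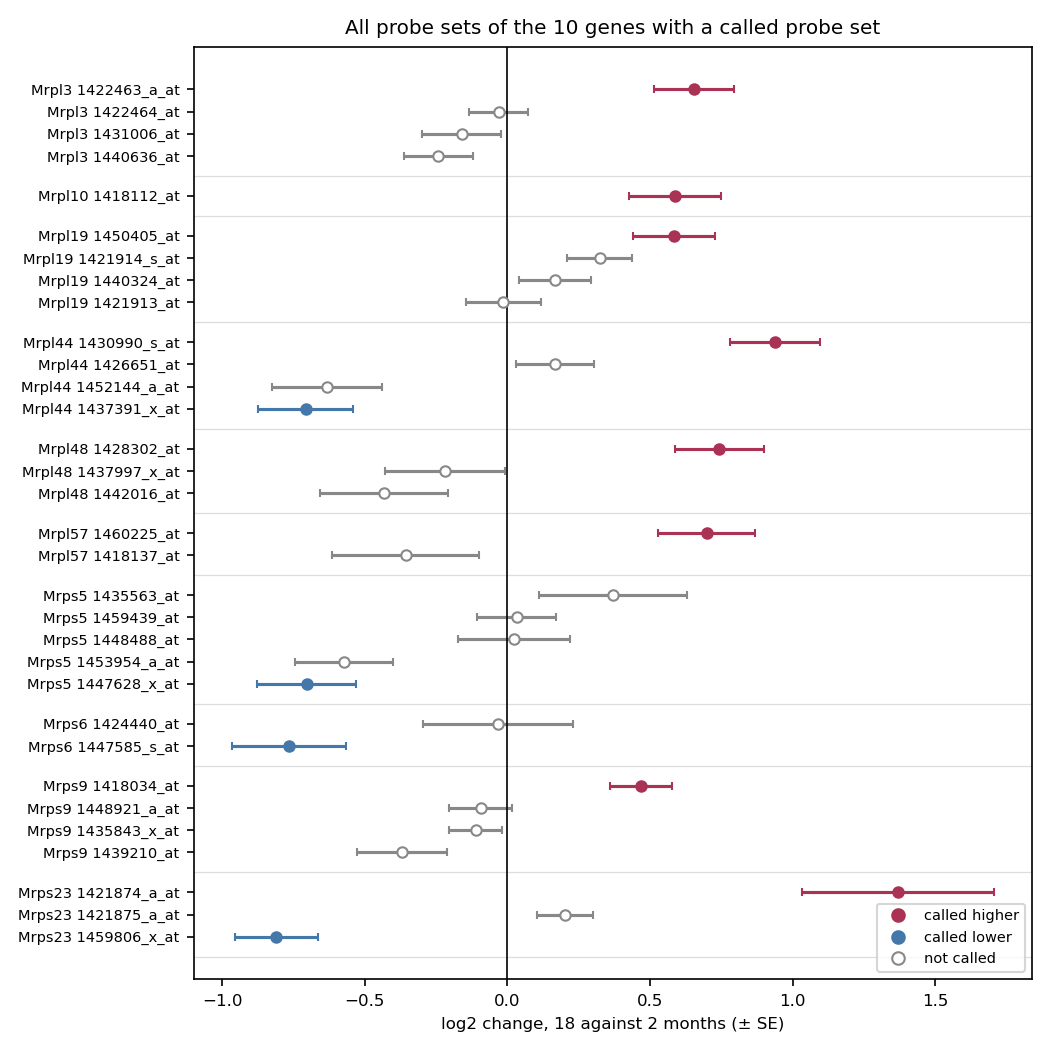
Log2 change between 2 and 18 months (x axis, ± SE) of every probe set (rows) of the 10 genes with a called probe set, filled where called. Mrpl44 and Mrps23 have probe sets called in both directions, and in Mrpl3, Mrpl48, Mrpl57, Mrps5 and Mrps9 the uncalled probe sets include changes of the opposite sign.

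Proteins named for their role or for their place in earlier work, whatever their values, did not pass the test at their brightest probe set, apart from Mrpl10 above. In the small subunit, Mrps12, which lies at the decoding centre, had a mean of 10.48 at 2 months and 10.14 at 18 months, a difference of -0.33 ± 0.37 (adjusted p = 0.641). Mrps16, Mrps22 and Mrps34, which are mutated in human disorders of mitochondrial translation, differed by -0.09 ± 0.33, 0.05 ± 0.14 and -0.16 ± 0.35, and Mrps27, an RNA-binding protein, by 0.09 ± 0.13. The 3 proteins related to bacterial S18 differed by 0.53 ± 0.17 (Mrps18a, adjusted p = 0.0832), 0.27 ± 0.21 (Mrps18b) and -0.12 ± 0.14 (Mrps18c). Mrps18a and Mrps30 sit in the large subunit despite their names, and Mrps30 differed by 0.09 ± 0.25.

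In the large subunit, Mrpl11 and Mrpl12 of the factor-binding stalk region differed by 0.16 ± 0.28 and 0.37 ± 0.26. Mrpl45, at the exit of the tunnel for the new protein chain, differed by 0.13 ± 0.20, and Mrpl41 by -0.39 ± 0.35. Mrpl58, which frees stalled ribosomes by releasing the unfinished chain, differed by 0.09 ± 0.25. Among the brightest probe sets of the genes, those of highest and lowest mean signal in each subunit had age differences of -0.29 ± 0.12 for Mrpl39 and 0.01 ± 0.39 for Mrpl54, and 0.33 ± 0.12 for Mrps14 and 0.01 ± 0.36 for Mrps11. Signal of different probe sets depends on their probes, so these do not order the transcripts. Standard errors above 0.3 in this group mean that changes near the 1.3-fold limit (0.38 on the log2 scale) were not detectable for them. Smaller standard errors did not ensure a call either, as limma did not call Mrps18a at 0.53 ± 0.17 (adjusted p = 0.0832). The uncalled genes named here are therefore not shown to be unchanged.

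Between 2 and 10 months, 2 members were called higher and 0 lower (1.28%), the Mrpl48 and Mrpl19 probe sets given above. Among all probe sets 1.36% were called in this comparison and 0.837% called higher. The median change of the members was 0.04, against -0.01 over all, with 96 of 156 above zero. This comparison shares its young samples with the one at 18 months, so that the values of both are not independent. At the brightest probe sets, 1 of 76 genes was called (Mrpl48), against 1.48% of genes.

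Between 10 and 18 months, limma called 0 members and 0.00222% of all probe sets (1 of 45037). An unadjusted p under 0.05 was found for 5 of the 156 members and for 2280 of all 45037 probe sets. The median change of the members was -0.12, against -0.03 over all, and 118 of 156 lay below zero. Cytosolic ribosomal protein probe sets had a median of -0.12 (83 of 105 below zero) and those of oxidative phosphorylation -0.12 (132 of 170 below zero), near the members. With each sample left out in turn the members' median ranged from -0.05, without middle-aged array 2, to -0.21, without middle-aged array 3. Without the latter array, 43 members had an unadjusted p under 0.05 and 0 were called. The median over all probe sets moved as well, to -0.06. No count over all probe sets at that unadjusted p is given for this fit, so the 43 cannot be set against a background. A test of whether the change from 2 to 10 months differed from that from 10 to 18 months called 0 members (0% of all probe sets), with 7 members at an unadjusted p under 0.05 and a smallest adjusted p of 0.898 among the members.

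The spread within an age was shared by many members, and the same arrays also differed over all probe sets. Middle-aged array 3 had 2008, 4905 and 3216 probe sets more than 1 log2 unit from arrays 1, 2 and 4. The other middle-aged pairs had 635, 100 and 85. Late-middle-aged arrays 1 and 3 had 151 such probe sets and arrays 2 and 4 had 215, against 816 to 1875 in the other pairs of that age. As the median deviation of the 104 large subunit probe sets from their own means over all samples, middle-aged arrays 1, 2 and 4 stood at 0.12, 0.27 and 0.15 and middle-aged array 3 at -0.25. Late-middle-aged arrays 1 and 3 stood at 0.10 and 0.05, and arrays 2 and 4 at -0.15 and -0.18. The young samples stood at -0.03, -0.06 and 0.11. The 52 small subunit probe sets followed with a smaller range, from -0.14 on middle-aged array 3 and late-middle-aged array 4 to 0.19 on middle-aged array 2. All probe sets together ranged from -0.05 to 0.06, but the joint normalization holds this level nearly equal between arrays (array medians of 6.12 to 6.21). That narrow range is therefore no measure of how far an array differed. Cytosolic ribosomal proteins ranged from -0.38 to 0.33 and oxidative phosphorylation from -0.33 to 0.31 on the same arrays.

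**Figure D4:**
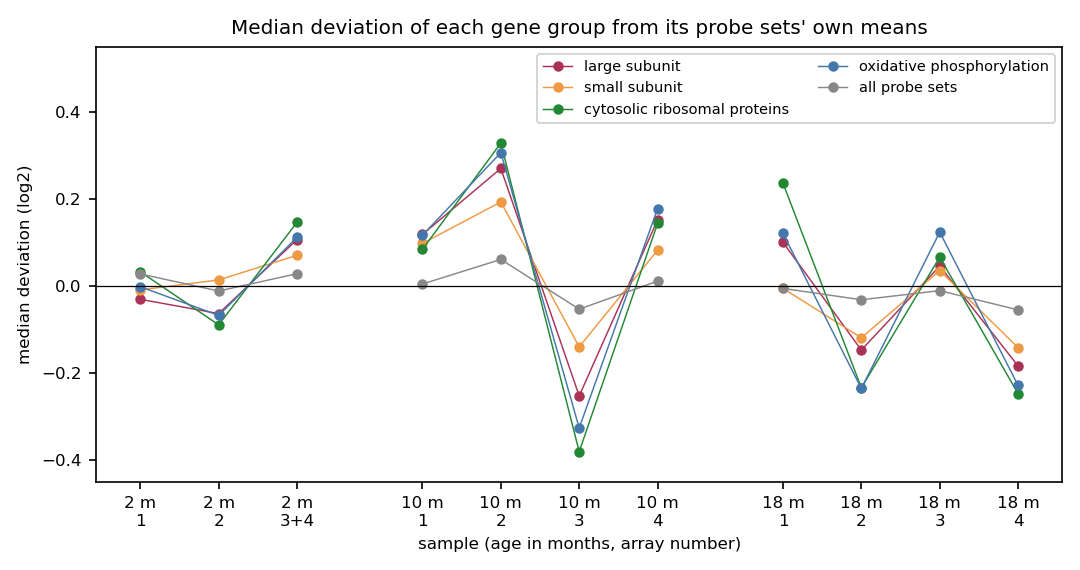
Median deviation of the probe sets of each gene group from their own mean over the 11 samples (y axis, log2), by sample (x axis, age and array number). Middle-aged array 3 and late-middle-aged arrays 2 and 4 lie low for both subunits, for cytosolic ribosomal proteins and for oxidative phosphorylation. The line for all probe sets stays between -0.05 and 0.06, where the joint normalization of the arrays holds it.

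After removal of the age means, the mean correlation between pairs of members was 0.22 over the 134 members above the median signal of all probe sets, against 0.01 for all probe sets of that signal range. It was 0.28 within the large subunit, 0.13 within the small subunit and 0.19 between them, and 0.27 between members and oxidative phosphorylation. These are descriptions over 11 samples with 8 residual degrees of freedom, in which all probe sets share the arrays and their normalization. Cytosolic ribosomal proteins (0.43) and oxidative phosphorylation (0.35) had higher values than the members.

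Against the mean of the other members, 85 of the 134 had a correlation above 0.5 and 14 below -0.5. Mrps16 had the highest value (0.97), with 10.31, 10.58, 9.10 and 10.46 at 10 months and 10.17, 9.62, 10.32 and 9.34 at 18 months. It was thus lowest on the arrays on which both subunits were low. The most opposed was a probe set of Mrps14 (1443262_at, -0.88), with 6.42, 5.75, 7.43 and 5.97 at 10 months and 6.07, 6.88, 6.29 and 6.81 at 18 months, followed by Mrps5 1435563_at (-0.86) and the called Mrps23 1421874_a_at (-0.86). Also called and below -0.5 were Mrpl3 1422463_a_at (-0.75) and Mrpl57 1460225_at (-0.68). These probe sets were picked from the ends of the order and are not tested.

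**Figure D5:**
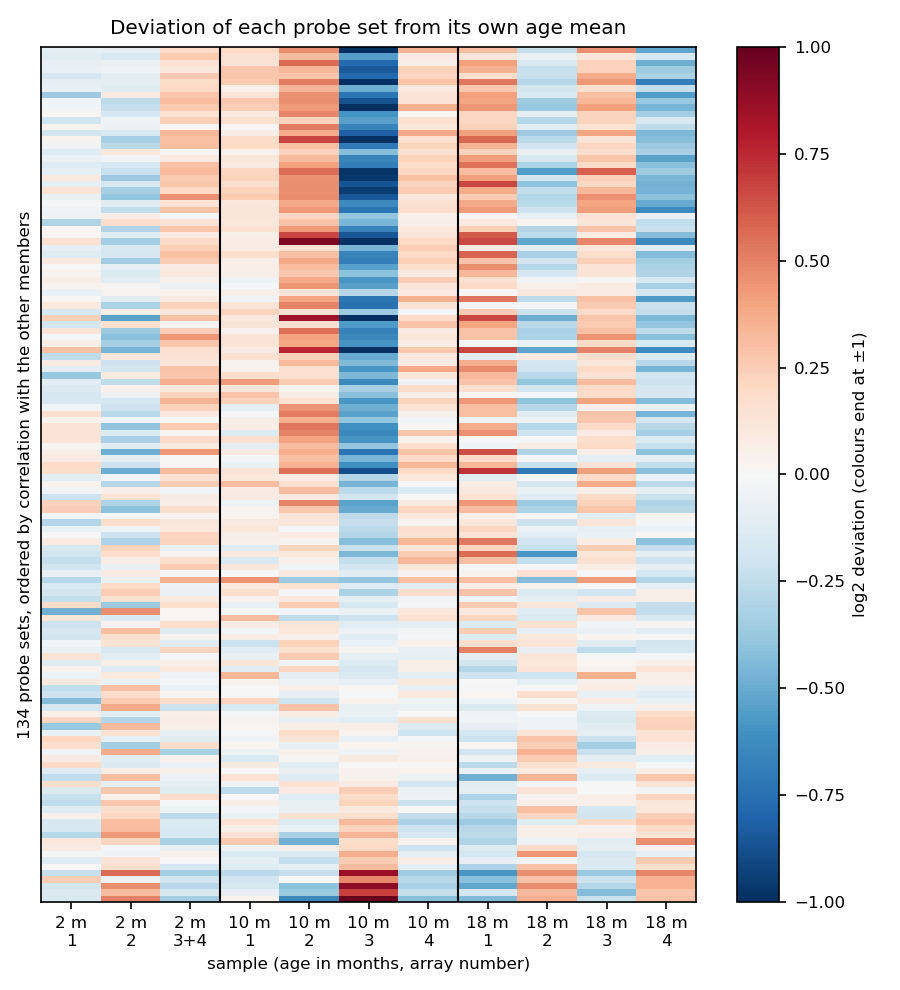
Deviation of the 134 members above the median signal from their own age mean (colour, log2, ending at ±1) in each of the 11 samples (columns), with probe sets (rows) ordered from the highest to the lowest correlation with the other members. Most rows are low on middle-aged array 3, and the lowest rows are high there.

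The median SD within an age was 0.25 for members against 0.20 for all probe sets, and the median SE of the change from 2 to 18 months was 0.18 against 0.15. Mrpl52 had the widest spread (picked for it), with SDs within an age of 0.67, 0.70 and 0.65 on 3 probe sets. Its brightest one (1460701_a_at) had 10.57, 11.30, 9.33 and 10.65 at 10 months and 10.61, 9.46, 10.22 and 9.50 at 18 months, and its change of -0.79 ± 0.42 between 2 and 18 months was not called (adjusted p = 0.288).

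The counts of called members depended on single samples. Between 2 and 18 months limma called 12 members with all samples, 1 without young array 1, 7 without young array 2, 6, 5 and 4 without late-middle-aged arrays 2, 3 and 4, and 21 without middle-aged array 3. The share of all probe sets called moved with them, to 0.939% without young array 1, 3.70% without young array 2, 4.32%, 4.30% and 4.33% without those late-middle-aged arrays, and 11.8% without middle-aged array 3, beside 13.5% of the members in the latter fit. The member still called without young array 1 was Mrpl44 1430990_s_at. Young array 1 was the lowest young sample on Mrpl10, Mrpl19, Mrpl48, Mrpl3 and Mrps9. Of the 11 fits that each left out a sample, Mrpl10 and Mrps6 1447585_s_at were called in 2, Mrpl44 1437391_x_at and Mrps5 1447628_x_at in 5, Mrpl19, Mrpl57, Mrps9 and Mrps23 1421874_a_at in 6, and Mrpl3, Mrpl48 and Mrps23 1459806_x_at in 10.

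Other genes of mitochondrial gene expression were taken from lists by function, each gene at its brightest probe set, and 9 of 106 measured genes (8.49%) were called between 2 and 18 months, beside the 8.82% of all genes given above. Of 14 translation factors, 2 were higher and 0 lower, with a median change of 0.28. These were Lrpprc, which stabilises mitochondrial messages, at 0.88 ± 0.24 (adjusted p = 0.0438) and Mtfmt, which formylates the initiator tRNA, at 0.48 ± 0.13 (adjusted p = 0.0497). Tufm, the elongation factor that brings tRNAs to the ribosome, had a change of 0.61 ± 0.18 (adjusted p = 0.0634).

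Of 19 mitochondrial tRNA synthetases and related enzymes, 1 was higher and 2 were lower (median 0.07). Fars2 rose by 0.69 ± 0.14, and Vars2 and Hars2 fell by 0.78 ± 0.10 and 0.51 ± 0.13. Vars2 was also the gene of this list called at 10 months, at -0.59. Of 25 genes for assembly of the ribosome and modification of its RNAs, 0 were called (7 at an unadjusted p under 0.05, median -0.01), as were 0 of 4 further proteins of the mitochondrial ribosome with other symbols (1 at an unadjusted p under 0.05), Dap3, Ptcd3, Chchd1 and Gadd45gip1, with changes of 0.40, 0.24, -0.21 and -0.58.

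Of 11 genes for transcription and upkeep of mitochondrial DNA, 2 were higher: Tfam, which packages that DNA and starts its transcription, by 0.92 ± 0.18 (adjusted p = 0.0148), and its polymerase Polg by 0.50 ± 0.13 (adjusted p = 0.0408). Of 9 regulators of mitochondrial biogenesis 0 were called (3 at an unadjusted p under 0.05), with Ppargc1a at -0.48, Nrf1 at 0.40, Gabpa at 0.73 and Yy1 at 0.03. Of 12 genes used as measures of mitochondrial content (import, outer membrane and matrix proteins), Vdac2 was higher (0.54 ± 0.13), and of 12 chaperones, proteases and stress genes, Clpp was higher (0.77 ± 0.14 at 18 months and 0.84 at 10 months). Between 10 and 18 months limma called 0 of the genes on these lists (4 at an unadjusted p under 0.05).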

How the data were processed

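The authors extracted total RNA from dissected VTA with a micro column kit, labelled 50 ng per pool in a two-cycle assay, hybridised it to Affymetrix mouse expression arrays and normalised the arrays together with RMA in Babelomics. Per the submitters' processing notes, limma 3.4.5 was used too. The deposited values are log2 expression per probe set, and they were used as deposited. Scanner files were not used here, and a genome build (GRCm38.p6) served only for the promoter sequences from RefSeq. Arrays have no read depth, so precision rests on how many there were.

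Groups came from the labels. The 64 control probe sets were left out, and limma 3.58.1 in R 4.3.3 was fitted over the other 45037 probe sets with 3 ages and 11 samples. Young arrays 3 and 4 were counted as 1 sample, as they differed by less than other replicates; this departs from the 12 arrays of the planned design. Apart from young arrays 3 and 4, pools were treated as separate because the labels number them as replicates. Called means an adjusted p (Benjamini-Hochberg, all probe sets) under 0.05 and a change above 1.3-fold, as in the study's methods. Summaries used Python 3.11.15, pandas 2.3.3 and numpy 2.4.6. The fit was tested on simulated data. Gene symbols came from the platform annotation, and all 156 members matched RefSeq by gene number. Named were all called members with the other probe sets of their genes, the genes of highest and lowest mean signal of each subunit (each gene at its brightest probe set), and 18 genes chosen for their role. Members, lists and tests were chosen with earlier results of these data known. Alternatives were another handling of the arrays, a replicate block, a 3' minus 5' covariate, removal of dim probe sets, 1 probe set per gene, 2 ages only, other variance priors, median centring, no fold limit, each sample left out, and, added after seeing the data, removal of _x_at and _s_at probe sets.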

Additional observations from a re-analysis of the deposited data

Results flagged for a closer look

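In each group of 4 samples, the gap of the highest or lowest value to its neighbour was set against the range of the group for the named probe sets and both subunit medians, over 70 groups; chance flags about 1 in 20 groups. On middle-aged array 3, Mrps12 (1448799_s_at) stood at 9.47 against 10.78 to 11.03 on the other 3 arrays, Mrps34 (1421971_a_at) at 9.96 against 11.24 to 11.41, and Mrpl11 (1417918_at) at 10.25 against 11.10 to 11.22. Mrps18b (1451164_a_at) stood at 8.83 there against 9.39 to 9.46, and Mrps27 (1433646_at) at 8.35 against 8.72 to 8.74. Middle-aged array 3 also differed most from the other arrays of its age over all probe sets, as given above. In the opposite direction, Mrpl57 (1460225_at) stood at 7.19 on that array against 6.68 to 6.75, and at 7.55 on late-middle-aged array 2 against 6.94 to 7.04. Mrpl39 (1448909_a_at) stood at 12.67 on middle-aged array 2 against 12.30 to 12.33.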

How the results depend on the processing

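Between 2 and 18 months the 12 called members became 4 with 1 probe set per gene and p-values adjusted over the genes (5.26% of members, 9.84% of all genes), 6 without _x_at and _s_at probe sets (4.51%, and 6.74% of all probe sets kept), and 0 with the 3' minus 5' covariate, which separates young from later samples. With each sample left out the count ranged from 1 to 21. Between 2 and 10 months the 2 called members became 1 with 1 probe set per gene, 1 with a trend and robust prior, 0 with only the 2 ages compared (28 at an unadjusted p under 0.05), 0 with the covariate (4 at an unadjusted p under 0.05), and 0 to 3 with each sample left out. The background moved too. With 1 probe set per gene 1.82% of all genes were called. Of all probe sets, 1.36% were called at first and 0.482% with the trend and robust prior. That share was 0% with only the 2 ages, 0% with the covariate, and 0.00222% to 2.83% with each sample left out. The 9 called genes of the mitochondrial lists, of 106 measured, became 20 with 12 separate arrays, 14 with only the 2 ages compared, 0 with the covariate (2 at an unadjusted p under 0.05), and 1 to 21 with each sample left out. The share of all probe sets called, 7.46% at first, was 9.90%, 8.67%, 0% and 0.939% to 11.8% in these settings. The lists count genes at their brightest probe set, so their counts cannot be set directly against these shares of probe sets. On that gene basis the main fit called 8.49% of the listed genes and 8.82% of all genes. Between 10 and 18 months limma called 0 members under every alternative run. The change of Mrpl10 between 2 and 18 months was -0.22 with the covariate, against 0.59, and no other called member turned its direction under an alternative. With the covariate the median SE of the members was 0.49, against 0.18 in the main fit, so the sign of a change of that size is not firm. The cause of the shifts between settings was not tested. Replicate numbers did not pair the samples: 4 of 12 same-numbered pairs had a correlation over 0.1, and 0 of 12 arrays correlated best with their own number in both other ages. With the replicate block on the 12 separate arrays, 10 members were called between 2 and 18 months (6.41%), against 15 without the block (9.62%), and 0 between 2 and 10 months (29 at an unadjusted p under 0.05), against 3. Of all probe sets, 5.66% were called between 2 and 18 months with the block and 9.90% without it. Between 2 and 10 months these shares were 0.00666% and 2.17%. Counting Mrps18a and Mrps30 in the large subunit and leaving out Mrps36, as the known structure has it, moved the medians to -0.02 (large) and -0.09 (small).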
